A study of Mus musculus with 15 samples.

Results

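Chromatin accessibility was followed at 10 genes of the hypoxia response in tumour cells sorted from mouse pancreatic tumours. They were the oxygen-regulated factors Hif1a and Epas1, their partner Arnt, the oxygen sensors Egln1 and Egln3, and the target genes Vegfa, Slc2a1, Ndrg1, Bnip3 and Hk2. A peak belonged to a gene if it overlapped the gene body or lay within 20 kb of it, which gave 73 of the 67945 merged peaks. Of these, 41 overlapped a gene body, and 69 passed the filter on low counts. Hif1a and Slc2a1 had 10 peaks each, Ndrg1 and Hk2 9, Epas1 8, Egln3 and Bnip3 7, Egln1 6, Vegfa 5 and Arnt 2.

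The study asked how open chromatin differs between tumour cells of T cell high and T cell low tumours. Both groups were pancreatic tumour cell clones implanted under the skin of C57BL/6 mice, from whose tumours 50000 tumour cells per library were sorted after 3 weeks, with no treatment. The T cell high group held 2838c3, 6421c2 and 6499c4 along with 6555c3, 6620c1 and 7160c2 (n = 6). The T cell low group held 2699c4, 6419c1 and 6419c5 along with 6422c1, 6499c3, 6556c3 and 6694c2 (n = 7). The labels list 15 samples, of which 2, labelled T cell intermediate, were not analysed here. Neither the clones' genotype nor the animals' age is given in the sources used here. Each library is 1 clone from 1 tumour, so the spread within a group is the spread between clones, and oxygen in the tumours is not recorded in the labels. The assay, ATAC-seq, inserts sequencing adapters into open DNA, and levels are CPM, counts scaled to library size. Total counts in peaks ran from 968296 to 5936823 in T cell high libraries and from 1030616 to 7369228 in T cell low libraries. Of 12 tumour epithelium markers, 11 had a peak at the gene start, whose summed level was 181 to 397 CPM in T cell high clones and 215 to 341 CPM in T cell low clones (means of 317 and 256 CPM in T cell high and T cell low). In bulk libraries, fewer cells with an open site and less opening per cell cannot be told apart.

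In well-oxygenated cells the prolyl hydroxylases encoded by Egln1 (PHD2) and Egln3 (PHD3) mark the HIF alpha subunits for destruction by the VHL ubiquitin ligase. When oxygen is scarce, HIF-1 alpha (from Hif1a) or HIF-2 alpha (from Epas1) accumulates, pairs with the protein from Arnt and binds short DNA elements with the core ACGTG or GCGTG. The target genes then raise blood vessel growth (Vegfa), glucose uptake and its first step in glycolysis (Slc2a1 and Hk2) and mitochondrial clearance (Bnip3). Oxygen regulates the HIF alpha subunits mainly as proteins, so accessibility at Hif1a and Epas1 does not measure how active they are.

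The DNA just before the starts of these genes lay inside open chromatin and in most cases carried the core element. Promoter sequences from RefSeq (build GRCm38.p6, the assembly that mm10 represents) were found for 8 of the 10 genes, and Epas1 and Ndrg1 had no entry. At the main start of each of the 8, all 250 bases upstream fell inside a listed peak. ACGTG or GCGTG was searched on both strands, and 7 of those 8 windows held a match, against 44.0% of 21262 RefSeq promoter windows of the same length. ACGTG alone was in 17.8% of them and GCGTG alone in 33.8%, counted separately. Those background windows include further starts of a gene and were not matched to the 8 for open chromatin or base content. G and C made up 50.8% (Egln3) to 86.0% (Egln1) of the bases in the 8. The windows of 6 genes follow, since they show the range, with matches in capitals. CACGT and CACGC are the motifs read on the other strand, and CACGTG holds ACGTG on both strands.
Hif1a, chr12:73907617-73907866, plus strand: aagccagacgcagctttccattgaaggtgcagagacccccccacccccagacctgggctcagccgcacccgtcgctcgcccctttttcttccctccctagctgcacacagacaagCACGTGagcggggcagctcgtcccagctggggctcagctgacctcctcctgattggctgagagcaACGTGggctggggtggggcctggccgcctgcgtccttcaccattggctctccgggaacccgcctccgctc
Egln3, chr12:54203875-54204124, minus strand: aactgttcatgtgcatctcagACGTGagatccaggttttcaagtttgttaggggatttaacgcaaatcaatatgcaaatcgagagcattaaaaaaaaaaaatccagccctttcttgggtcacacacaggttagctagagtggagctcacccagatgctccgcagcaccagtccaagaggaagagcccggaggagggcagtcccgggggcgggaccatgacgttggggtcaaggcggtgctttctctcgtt
Vegfa, chr17:46032378-46032627, minus strand: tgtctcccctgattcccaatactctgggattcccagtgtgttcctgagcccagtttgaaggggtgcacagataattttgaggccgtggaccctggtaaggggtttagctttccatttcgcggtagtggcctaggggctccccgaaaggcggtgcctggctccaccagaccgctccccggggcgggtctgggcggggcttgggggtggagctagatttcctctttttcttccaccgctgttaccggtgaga
Slc2a1, chr4:119108495-119108744, plus strand: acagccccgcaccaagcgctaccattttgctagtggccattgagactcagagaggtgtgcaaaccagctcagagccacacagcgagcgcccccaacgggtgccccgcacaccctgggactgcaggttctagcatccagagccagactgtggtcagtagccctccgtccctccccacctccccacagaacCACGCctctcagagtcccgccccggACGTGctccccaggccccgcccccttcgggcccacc
Bnip3, chr7:138909507-138909756, minus strand: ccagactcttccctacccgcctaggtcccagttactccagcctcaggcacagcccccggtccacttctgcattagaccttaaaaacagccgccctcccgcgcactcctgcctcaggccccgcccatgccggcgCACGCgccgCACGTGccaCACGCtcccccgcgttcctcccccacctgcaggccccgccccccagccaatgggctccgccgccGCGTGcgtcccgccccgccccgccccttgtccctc
Hk2, chr6:82774455-82774704, minus strand: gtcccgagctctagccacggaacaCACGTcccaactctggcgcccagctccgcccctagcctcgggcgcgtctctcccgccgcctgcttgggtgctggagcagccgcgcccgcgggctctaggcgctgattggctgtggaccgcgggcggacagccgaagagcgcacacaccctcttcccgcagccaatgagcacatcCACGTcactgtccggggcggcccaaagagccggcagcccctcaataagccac
The Bnip3 window held the most matches, 2 of ACGTG and 3 of GCGTG, with a CACGTG whose first ACGTG began 108 bases before the start. Hif1a had 3 matches of ACGTG, 2 of them in a CACGTG, and Hk2 had 2, which began 226 and 52 bases before the start. Slc2a1 had 1 of each motif and Egln3 had 1 ACGTG. Egln1 also had 1 of each, and Arnt had 1 GCGTG. The main Vegfa window held neither. A second Vegfa start in RefSeq, at position 46025163, had 1 of each in its window, and 0 of its 250 bases fell in a listed peak. A match is a run of letters and was not tested as a binding site.

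The start peak had the highest mean CPM per kb over the 13 clones at every gene. Within T cell high clones, a peak outside the gene body averaged more at Ndrg1 (50.1 against 45.3 CPM per kb) and Slc2a1 (49.1 against 48.7). In T cell low clones the start peak averaged more at both, with 50.6 against 45.4 at Ndrg1 and 46.7 against 43.7 at Slc2a1. Where several peaks qualified as start peak, the one with the highest mean count was taken, which favours high values. Among the start peaks, averaged over 13 clones, Hk2 came first with 71.6 ± 18.8 CPM per kb (SD). Hif1a followed with 60.3 ± 27.3, Bnip3 with 54.1 ± 10.9 and Ndrg1 with 48.2 ± 11.6 CPM per kb. Slc2a1 had 47.6 ± 11.3, Arnt 45.8 ± 12.1 and Egln3 41.6 ± 13.9 CPM per kb. The lowest were Epas1 with 35.1 ± 16.99, Egln1 with 31.5 ± 9.32 and Vegfa with 25.9 ± 8.25 CPM per kb. The median of 11106 tested start peaks was 26.2 CPM per kb, so 9 of the 10 genes lay above it. The order between neighbours was loose: each gene exceeded the next in only 5 to 10 of the 13 clones. Hk2 exceeded Hif1a in 10 clones, whereas Hif1a exceeded Bnip3 in 5, although its mean was higher. Nor did the order hold in each group: Hif1a averaged 51.2 CPM per kb in T cell high clones, below Bnip3 with 55.7, and 68.0 in T cell low clones, above Hk2 with 67.2. The order also depends on peak boundaries, since start peaks ran from 817 bases at Hk2 to 2018 at Egln1. A separate, weaker Hk2 peak with 27.4 CPM per kb also lay within 1 kb of the start and was passed over. It ended at 82774096, and the start peak began at 82774175. Without division by length, Ndrg1 led in both groups. Its start peak averaged 82.9 CPM in T cell high clones and 92.7 CPM in T cell low clones, against 62.7 and 54.9 CPM at Hk2.

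**Figure D1:**
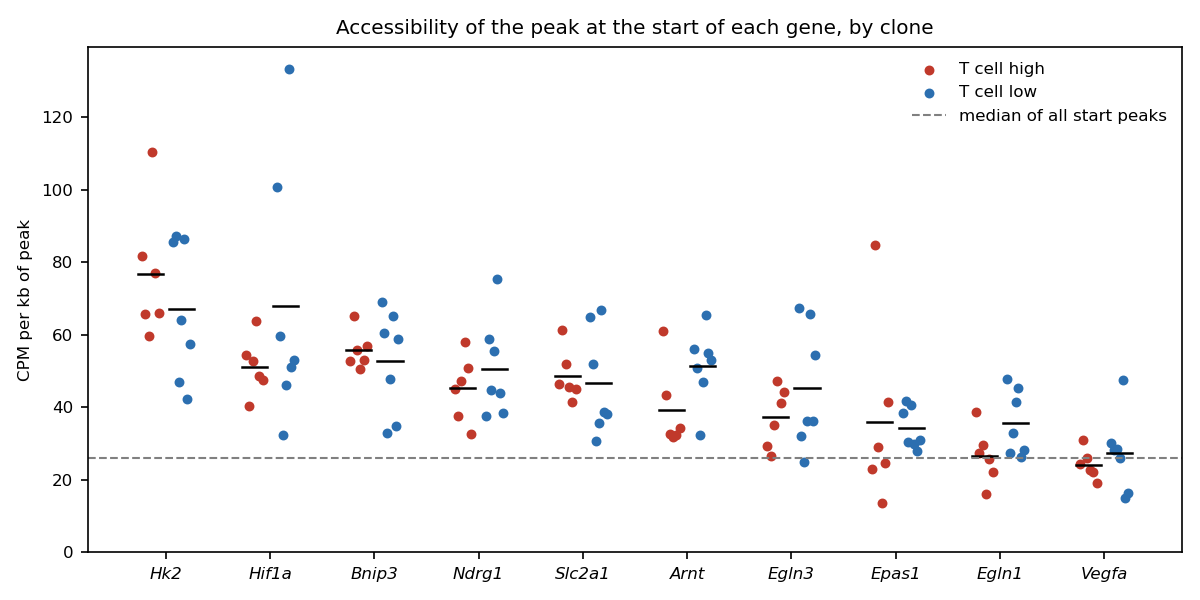
CPM per kb of the start peak of each gene (vertical axis) by clone, with genes in order of their mean; T cell high clones are left (red) and T cell low clones right (blue) of each gene, bars are group means and the dashed line is the median of all start peaks. Hk2 reaches 111 in a T cell high clone and Hif1a 133 in a T cell low clone, and the groups overlap at every gene.

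Start peaks also varied less between clones than other peaks did. Their coefficient of variation (SD over mean, 13 clones) had a median of 28.0%, against 46.7% for the 63 other peaks of the 10 genes. All tested peaks showed the same split, with 29.4% at start peaks and 49.8% elsewhere. Counting noise raises this measure at low counts, and peaks of like counts were not compared. Start peaks were taken by highest mean count where several qualified, which favours low variation. Over all libraries the 10 start peaks held 1338 to 3589 counts and the other peaks of these genes 96 to 2076. Bnip3's start peak varied least, by 20.1%, and those of Epas1 and Hif1a most, by 48.4% and 45.2%. Summed over all peaks of a gene, Slc2a1, the main glucose transporter of many cell types, varied by 12.2%, and only 1.01% of 16803 tested genes varied less. Epas1 varied by 45.6%, more than 87.9% of the genes. These ranks were not matched for counts, and the Slc2a1 sum covered 10 peaks with 162 to 1356 counts per library.

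None of the 10 genes differed between the groups after adjustment. The test was edgeR's quasi-likelihood test on counts summed per gene, two-sided, with Benjamini-Hochberg adjustment over all genes at 0.05. It called 0 of the 10, against 0.00595% of all tested genes (1 of 16803, Skint6). At an unadjusted p under 0.05 it gave 1 of the 10, Arnt, against 7.06% of all genes. DESeq2 called 0 of the 10 (0.0655% of all genes) and gave 0 at an unadjusted p under 0.05 (7.41%). With limma-voom 0 were called (0.0%) and 1, again Arnt, had an unadjusted p under 0.05 (7.68%). The log2 fold change, T cell high over T cell low, was above zero at 3 genes (49.0% of all genes) and below zero at 7 (51.0%). Its median was -0.09, against -0.01 over all tested genes. The values of both groups overlapped at all 10, and 0.19% of all genes had no overlap.

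**Figure D2:**
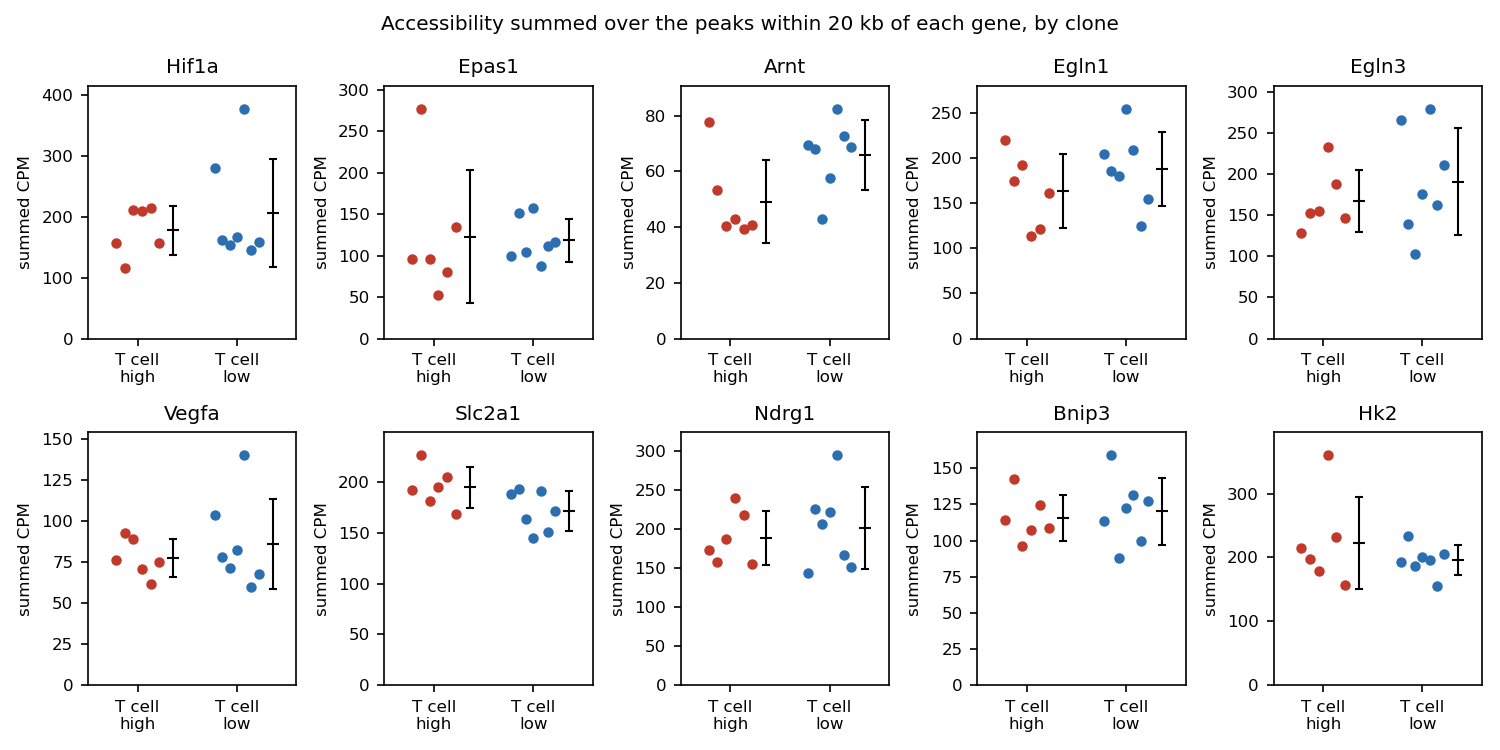
CPM summed over the peaks within 20 kb of each gene (vertical axis, from 0) for 6 T cell high (red, left) and 7 T cell low (blue, right) clones; the cross with bars is the mean ± SD. The groups overlap at every gene, and single clones stand apart at Epas1 (277 CPM in 6421c2, T cell high), Hk2 (359.9 CPM in 6555c3, T cell high) and Hif1a (376 CPM in 6499c3, T cell low).

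Among the factors, Hif1a reached its highest levels in T cell low clones, but 5 of those 7 clones lay within the T cell high range. Its summed accessibility had a lowest, median and highest value of 116, 183 and 215 CPM in T cell high clones and of 145, 161 and 376 CPM in T cell low clones. Only 6499c3 (376 CPM) and 2699c4 (280.2 CPM), both T cell low, lay above the T cell high range. Hif1a averaged 177 ± 40.2 CPM in T cell high clones and 206 ± 88.5 CPM in T cell low clones (SD, n = 6 and 7). The log2 fold change was -0.16 (SE 0.20, 95% interval -0.58 to 0.25), with an adjusted p of 0.890 by edgeR's quasi-likelihood test. It was 0.01 without 6499c3, so its direction rested on that clone.

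The peaks around Hif1a did not share 1 direction. Its start peak, chr12:73907415-73908675, had 64.6 ± 9.90 CPM in T cell high clones and 85.8 ± 45.1 CPM in T cell low clones, and its log2 fold change was -0.42 (SE 0.26, edgeR adjusted p = 0.802), or -0.17 without 6499c3. A weaker peak at the lower end of the gene record, with its centre at -6544 bases from the RefSeq start, had a log2 fold change of -0.96, with 3.05 ± 1.75 CPM in T cell high clones and 6.04 ± 5.61 CPM in T cell low clones. The peak 1941 bases beyond the end of the gene, chr12:73949495-73950082, went the other way. Among T cell high clones it had 2.38 CPM in 2838c3 and 1.24 CPM in 6421c2, but 13.3 CPM in 6499c4, 9.46 CPM in 6555c3, 12.95 CPM in 6620c1 and 7.98 CPM in 7160c2. In T cell low clones it had a lowest, median and highest value of 0.34, 2.20 and 7.47 CPM. Thus 4 T cell high clones exceeded the whole T cell low range in CPM, and 2838c3 and 6421c2 lay within it. The lowest of the 4, 7160c2, and the highest T cell low clone, 6556c3, held 8 counts each, so only scaling separates them. This peak held 198 counts over all libraries, 80 of them in 6499c4. The log2 fold change was 1.51 (SE 0.60), with an unadjusted p of 0.019 and an adjusted p of 0.670 by edgeR, and it was 1.26 to 1.83 when each library was left out. The farthest downstream peak is also the start peak of Snapc1, a gene for a subunit of the snRNA-activating complex, and cannot be credited to Hif1a alone.

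**Figure D3:**
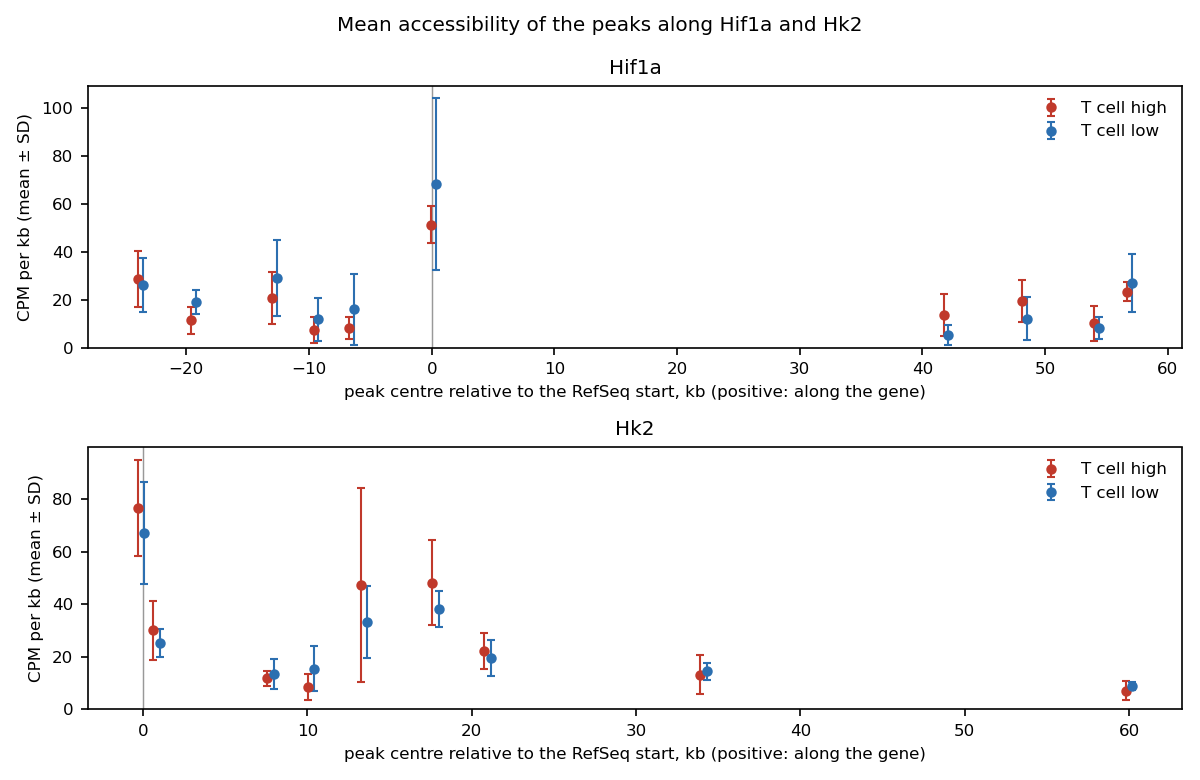
CPM per kb of each peak (mean ± SD; red T cell high, blue T cell low, shifted sideways for legibility) against the distance of the peak's centre from the RefSeq start in kb, for Hif1a and Hk2. At Hif1a the start peak averages 51.2 in T cell high and 68.0 in T cell low clones; at Hk2 further strong peaks lie within the gene, between 13 and 18 kb from the start.

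Epas1, the HIF-2 alpha gene, which is also strongly expressed in blood vessel endothelium, was the most variable of the 10. It had a lowest, median and highest value of 52.9, 95.7 and 277 CPM in T cell high clones and of 87.8, 112 and 157 CPM in T cell low clones. Both extremes were T cell high clones, 6555c3 at the bottom and 6421c2 at the top. Epas1 averaged 123 ± 80.0 CPM in T cell high clones and 118 ± 26.1 CPM in T cell low clones, which gave a log2 fold change of 0.05 (SE 0.27, 95% interval -0.51 to 0.61, edgeR adjusted p = 0.980). Without 6421c2 the log2 fold change was -0.36. Its start peak, chr17:86752943-86754436, had 127 CPM in 6421c2 and 20.2 to 61.8 CPM in the other T cell high clones, against 42.0 to 62.2 CPM in T cell low clones. An intragenic peak, chr17:86769502-86770449, had 72.0 CPM in 6421c2 and 5.59 CPM in 6555c3, so both extremes held there too.

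Endothelial markers were highest in 6421c2, the clone with the highest Epas1 value, while some other clones ranked differently for both. Of 15 listed endothelial markers, 3 had a peak at the gene start (Flt1, Egfl7 and Sox17), and their sum was 34.1 to 95.9 CPM in T cell high clones, with 95.9 in 6421c2, and 24.4 to 63.7 CPM in T cell low clones. The T cell low clone 6419c1 had 151 CPM at Epas1 with the lowest endothelial sum, 24.4 CPM, and the T cell high clone 6555c3 had the lowest Epas1 value, 52.9 CPM, with a sum of 53.3 CPM. The defining genes Pecam1, Cdh5, Tek and Kdr were among the 12 with no listed start peak. The tumour epithelium sum was also highest in 6421c2, at 397 CPM. The part of endothelial cells in the Epas1 value was not tested.

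Arnt, the shared partner, had the lowest unadjusted p of the 10 genes and only 2 peaks. It had a lowest, median and highest value of 39.3, 41.9 and 77.8 CPM in T cell high clones and of 42.9, 68.6 and 82.4 CPM in T cell low clones. In the T cell high group 2838c3 had 77.8 CPM and 6421c2 53.4 CPM, and the other 4 clones lay between 39.3 and 43.0 CPM. In the T cell low group 6419c5 was as low, at 42.9 CPM, and the other 6 clones lay between 57.8 and 82.4 CPM. Arnt averaged 49.1 ± 14.95 CPM in T cell high clones and 66.0 ± 12.5 CPM in T cell low clones. Its log2 fold change was -0.39 (SE 0.18, 95% interval -0.77 to -0.01), with an unadjusted p of 0.047 and an adjusted p of 0.698 by edgeR. It was -0.57 to -0.34 when each library was left out. The start peak, chr3:95433754-95434940, held most of the counts, with 46.7 ± 13.7 CPM in T cell high clones and 61.0 ± 12.03 CPM in T cell low clones.

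The oxygen sensors had slightly lower group means in T cell high clones, within the spread between clones. Egln1 had a lowest, median and highest value of 113, 167 and 219 CPM in T cell high clones and of 125, 186 and 254 CPM in T cell low clones. Its log2 fold change was -0.18 (SE 0.17, 95% interval -0.53 to 0.18, edgeR adjusted p = 0.847), or -0.07 without 6422c1. The Egln1 start peak, chr8:124948022-124950039, gave -0.42 (SE 0.21, edgeR unadjusted p = 0.061, adjusted p = 0.744). Its most distant downstream peak is the start peak of the neighbours Exoc8 and Sprtn.

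Egln3, itself a known HIF target, had a lowest, median and highest value of 129, 154 and 233 CPM in T cell high clones and of 102, 176 and 279 CPM in T cell low clones. The highest values were in 6499c3 (279 CPM) and 2699c4 (266 CPM), both T cell low and the same 2 clones that led at Hif1a. Egln3's log2 fold change was -0.15 (SE 0.19, 95% interval -0.54 to 0.23, edgeR adjusted p = 0.888), or -0.07 without 2699c4. The start peak, chr12:54203170-54204227, had 39.5 ± 8.76 CPM in T cell high clones and 47.9 ± 18.1 CPM in T cell low clones.

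Among the targets, Vegfa, the main angiogenic growth factor, had a lowest, median and highest value of 61.8, 75.6 and 92.8 CPM in T cell high clones and of 59.7, 78.4 and 140.1 CPM in T cell low clones. Only 6499c3 (140.1 CPM) and 2699c4 (104 CPM) exceeded the T cell high range. Vegfa's log2 fold change was -0.12 (SE 0.16, 95% interval -0.46 to 0.23, edgeR adjusted p = 0.899), or 0.0012 without 6499c3. All 5 of its peaks were below zero, by at most 0.30 on the log2 scale.

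Slc2a1 and Hk2, for glucose uptake and its phosphorylation, had higher group means in T cell high clones. Slc2a1 had a lowest, median and highest value of 169, 194 and 226 CPM in T cell high clones and of 145, 171 and 194 CPM in T cell low clones. The groups overlapped although each spanned a narrow range. Slc2a1 averaged 195 ± 19.9 CPM in T cell high clones and 172 ± 19.7 CPM in T cell low clones, which gave a log2 fold change of 0.20 (SE 0.12, 95% interval -0.04 to 0.45, edgeR adjusted p = 0.729). It stayed between 0.17 and 0.25 when each library was left out. At the start peak the means were close, with 50.5 ± 7.32 CPM in T cell high clones and 48.5 ± 15.2 CPM in T cell low clones (log2 fold change 0.05).

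Hk2 had a lowest, median and highest value of 157, 206 and 359.9 CPM in T cell high clones and of 156, 195 and 234 CPM in T cell low clones. The T cell high clone 6555c3 stood alone at the top, and the other 5 lay within the T cell low range. Hk2's log2 fold change was 0.20 (SE 0.16, 95% interval -0.13 to 0.54, edgeR adjusted p = 0.812), and 0.03 without 6555c3. In 6555c3 the intragenic peak chr6:82760749-82761256 had 59.3 CPM, against 7.98 to 29.5 CPM in the other T cell high clones and 5.57 to 25.6 CPM in T cell low clones. The stronger intragenic peak chr6:82756068-82757293 had 92.0 CPM there, against 33.9 to 70.0 CPM in the other T cell high clones and 32.7 to 57.2 CPM in T cell low clones.

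Ndrg1, a hypoxia-induced gene named for its regulation by N-myc, had a lowest, median and highest value of 155, 179.7 and 240.0 CPM in T cell high clones and of 144, 206 and 294 CPM in T cell low clones. Its highest value was again in 6499c3. Ndrg1's log2 fold change was -0.07 (SE 0.16, 95% interval -0.40 to 0.27, edgeR adjusted p = 0.953), or 0.0092 without 6499c3. Bnip3, a mitophagy receptor, had a lowest, median and highest value of 96.2, 111 and 143 CPM in T cell high clones and of 88.0, 122 and 159 CPM in T cell low clones. Its log2 fold change was -0.03 (SE 0.14, 95% interval -0.33 to 0.26, edgeR adjusted p = 0.976).

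Single peaks gave no call either. By edgeR's quasi-likelihood test, adjusted over all peaks, 0 of the 69 tested peaks passed 0.05, against 0.0% of all 59252 tested peaks (none). At an unadjusted p under 0.05 it gave 1 of the 69, the peak beyond the end of Hif1a, against 6.83% of all peaks. That 1 was higher in T cell high clones (3.86% of all peaks) and 0 were lower (2.96%). DESeq2 called 0 of the 69 after adjustment (0.0793% of all peaks) and gave 1 at an unadjusted p under 0.05 (7.79%). With limma-voom 0 were called (0.0%) and 4 had an unadjusted p under 0.05 (8.52%). Of the 69, 30 had a log2 fold change above zero (51.3% of all peaks) and 39 below (48.7%), with a median of -0.06, against 0.01 over all tested peaks. The central range of all tested peaks, from the 5th to the 95th percentile, ran from -0.75 to 0.85, and 64 of the 69 fell inside it. Peaks without overlap between the groups numbered 0, against 0.162% of all peaks.

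**Figure D4:**
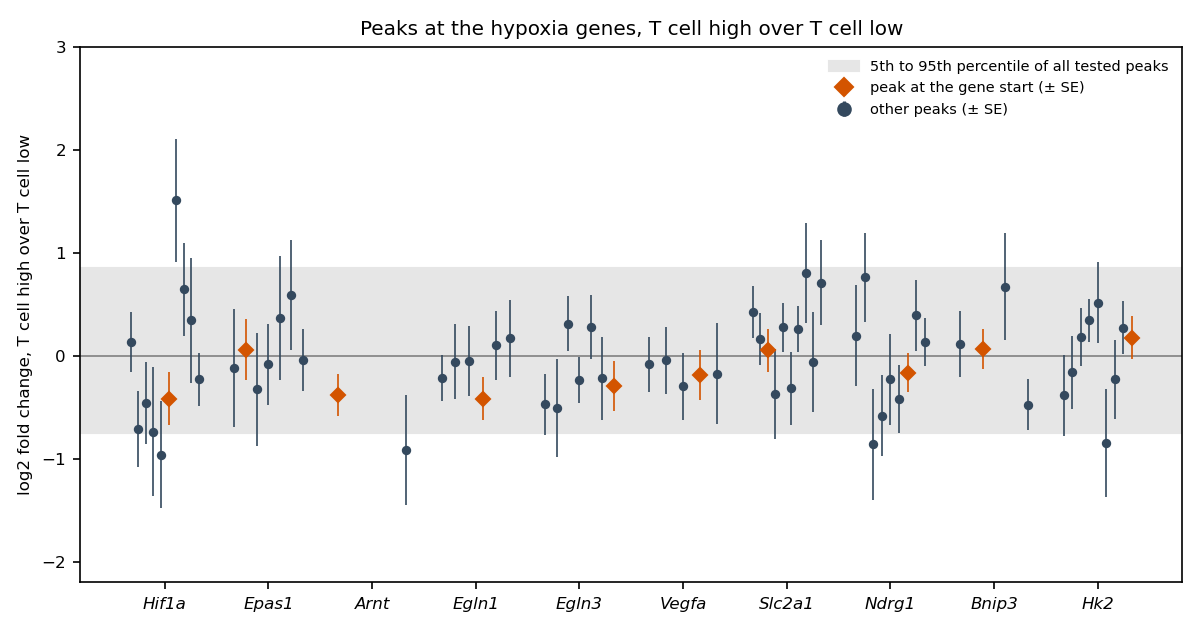
Log2 fold change, T cell high over T cell low, with its standard error for the 69 tested peaks, grouped by gene and in genomic order within a gene; orange diamonds are start peaks and the grey band spans the 5th to 95th percentile of all tested peaks (-0.75 to 0.85). Most points lie in the band, and the peak beyond the end of Hif1a stands highest at 1.51.

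Several of the clone-to-clone differences reached well beyond the genes. A regional value was taken as the median log2 deviation, from the mean of 13 clones, of the tested peaks between 50 kb and 2 Mb from each gene. For Hif1a it was 0.68 in 6499c3 and 0.44 in 2699c4, and for Egln3, on the same chromosome, 0.50 and 0.39. The medians over all tested peaks of chromosome 12 were 0.51 and 0.41 in these clones. Around Epas1 the regional value was 1.25 in 6421c2, where the gene itself deviated by 1.31. The median of chromosome 17 was 0.28 in that clone and the value around Vegfa, on the same chromosome, was 0.26, so the high region did not span the chromosome. In 6555c3, in contrast, Epas1 lay 1.07 below its mean on the log2 scale while its region was at 0.12. Hk2 in 6555c3 deviated by 0.82 and its region by 0.39.

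Across 13 clones the gene and its region moved together at some genes and not at others. Pearson's r between them was 0.85 at Hif1a, 0.82 at Egln1, 0.81 at Arnt, 0.76 at Egln3 and Vegfa, 0.61 at Epas1 and 0.60 at Slc2a1. It was 0.37 at Hk2, 0.25 at Ndrg1 and 0.04 at Bnip3. The median over 16742 tested genes was 0.58, with quartiles at 0.36 and 0.74, and 7 of the 10 genes lay above it. A gene and its region come from the same libraries, so depth and scaling are shared. Gene copy number was not measured, and its part in these values was not tested.

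With the regional value as an offset in the same model, the group differences changed size. The log2 fold change at Arnt was -0.12, where the region itself differed by -0.31, T cell high minus T cell low. At Slc2a1 it was -0.07, with the region higher by 0.28 in T cell high clones. At Epas1 it was -0.39 with an unadjusted p of 0.053 and an adjusted p of 0.838, and the region was higher by 0.32 in T cell high clones. At Hif1a it was 0.02 and at Hk2 0.07. None of the 10 passed the adjusted threshold with this offset.

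**Figure D5:**
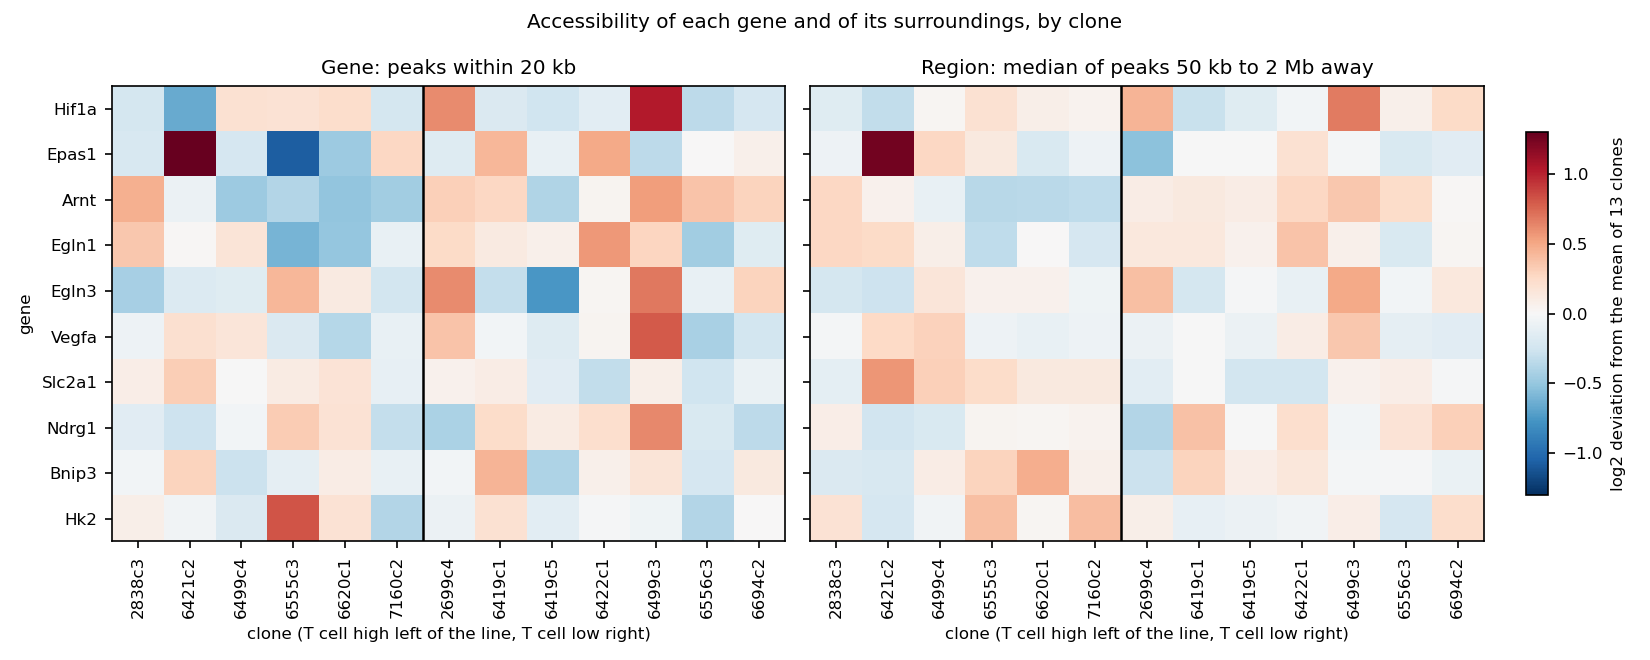
Log2 deviation from the mean of 13 clones (colour) for each gene's summed peaks (left panel) and for its region, the median of peaks 50 kb to 2 Mb away (right panel), by clone, with T cell high clones left of the line. Hif1a and Egln3 are high in 6499c3 and 2699c4 in both panels, and Epas1 in 6421c2 reaches 1.31 for the gene and 1.25 for the region, whereas Epas1 in 6555c3 is low in the left panel alone.

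Clones whose names begin with the same number were also set side by side, although the labels do not state what the number means. The T cell high clone 6499c4 was lower than the T cell low clone 6499c3 at 9 of the 10 genes, with a median log2 ratio of -0.55. Over all 16803 genes the median was -0.22 and 66.1% were lower in 6499c4. These ratios use CPM scaled to counts in peaks, and the shift over all genes was not removed. The tests on summed counts scaled those sums instead, and the 2 can differ in direction. At Egln1 the ratio was -0.12, whereas the fit with the clone-name factor, described at the end, was above zero. The ratios were -1.02 at Arnt, -0.85 at Egln3, -0.84 at Hif1a and -0.65 at Ndrg1 and Vegfa, and Epas1 alone was higher, at 0.12. The T cell low clones 6419c1 and 6419c5 differed at 10 of 10 genes in 1 direction, higher in 6419c1, with a median of 0.29. That pair lies within 1 group, and over all genes its median was 0.18, with 32.1% of genes lower in 6419c1. The ratio was 0.85 at Bnip3 and 0.66 at Arnt. A difference of the size seen between 6499c4 and 6499c3 at some genes thus also occurred between clones of the same group.

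A wider list of hypoxia pathway genes gave no call either. It held 69 names, of which Ero1l and Ero1a are older and newer names of the same gene, and 67 were tested. By edgeR's quasi-likelihood test adjusted over all genes, 0 rose and 0 fell, against 0.00595% of all tested genes called (1 of 16803). At an unadjusted p under 0.05 there were 3 higher and 2 lower, against 3.54% and 3.53% of all tested genes in those directions. The median log2 fold change was 0.03, against -0.01 over all genes. Of the 67, 40 were above and 27 below zero, against 49.0% and 51.0% of all tested genes.

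By role, the 10 regulators and partners had 5 above and 5 below zero, and the lowest unadjusted p values were at Ep300, a coactivator that HIF recruits (-0.36), and Arnt2, an Arnt paralogue (-0.61, or -0.37 without 6419c1). Of 20 genes for glucose uptake and glycolysis, 12 were above zero. Pfkfb4, a regulator of glycolytic flux, averaged 116 ± 17.97 CPM in T cell high clones and 96.7 ± 8.89 CPM in T cell low clones (log2 fold change 0.29, edgeR unadjusted p = 0.044, adjusted p = 0.693), and Hk1, a housekeeping hexokinase, had a log2 fold change of 0.23. The 3 genes for acid and ion balance were above zero, with the carbonic anhydrases Car9 at 0.14 and Car12 at 0.44. Without 6555c3 these values were 0.047 at Car9 and 0.19 at Car12. Of 15 genes for vessels, matrix and secreted factors, 8 were above zero. Kdr, a VEGF receptor of endothelium, averaged 35.9 ± 10.98 CPM in T cell high clones and 21.6 ± 11.2 CPM in T cell low clones (log2 fold change 0.75, edgeR unadjusted p = 0.031, adjusted p = 0.678). The collagen prolyl hydroxylase gene P4ha2 had a log2 fold change of 0.55. Of 11 genes for mitochondria, stress and survival, 7 were above zero, with Ak4, an adenylate kinase, at 0.69 (0.37 without 6421c2) and Fam162a at -0.35. Of 8 chromatin and transcription genes, 5 were above zero, with the histone demethylases Kdm3a at 0.14 and Kdm4c at 0.32. Leaving out each library gave 0.055 (without 6555c3) to 0.23 (without 6499c3) at Kdm3a and 0.087 (without 6421c2) to 0.53 (without 6556c3) at Kdm4c.

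Pairs of the 10 genes ranged widely in how alike they were across clones. Of their 45 pairs, 33 had a Pearson's r of log2 CPM above zero and 12 below, with a median of 0.18. The highest r over 13 clones was 0.74 between Hif1a and Egln3, which share chromosome 12. Hif1a and Vegfa had 0.63 and Egln1 and Vegfa 0.62, and the lowest was -0.60 between Hif1a and Epas1. Hif1a was high in 6499c3 and 2699c4, whereas Epas1 was high in 6421c2, where Hif1a was lowest. All values share the same libraries, and r is given as a description.

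Genes on other chromosomes followed single members more closely than the members followed each other, as the best of 16803 genes can over 13 points. The 2 genes most like each, by Pearson's r, were Hes7 and Aurkb for Hif1a (0.90 each), Vcam1 and Lyl1 for Epas1 (0.86 and 0.85), and Cenph and Btn1a1 for Arnt (0.95 and 0.94). For Egln1 they were Mfsd5 and Uqcc2, for Egln3 Rab43 and Nudt22, for Vegfa Armh1 and Fam53a, and for Slc2a1 Gm10778 and Lmbr1. For Ndrg1 they were Enpp1 and Zfp810, for Bnip3 Evi5l and Diras1, and for Hk2 Dtwd2 and Zscan20. Over all 20 genes r ran from 0.79 at Bnip3 to 0.95 at Arnt.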

How the data were processed

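ATAC-seq libraries of 13 tumour cell clones, 6 T cell high and 7 T cell low, were analysed. The deposited values were raw counts of reads per merged peak, made by the authors with featureCounts 1.5.3, per the file headers, without pair or strand options and from alignments named as having duplicates removed. Per the submitters' processing notes, the build was mm10 and DESeq2 was a tool of the study. Not given in the sources used here are the aligner, the way peaks were called and merged, and whether reads were shifted for the transposase. Both ends of a fragment can count in 1 peak, so counts are not independent molecules.

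Columns were matched to samples by clone name. Peaks kept by filterByExpr (59252 of 67945) were tested in R 4.3.3 with edgeR 4.0.16 (glmQLFit, glmQLFTest, TMM, Benjamini-Hochberg at 0.05), and so were counts summed over peaks within 20 kb of each of 21883 protein-coding genes of the RefSeq table (17161 with a peak, 16803 tested). A peak near several genes enters each. CPM is relative to the TMM-scaled total of counts in peaks, with a prior count of 2 for the log2 CPM behind the regional values. For gene deviations, clone ratios and chromosome medians a small constant was added to CPM instead. A start peak overlaps 1 kb either side of a RefSeq start, or of either end of the gene record at Epas1 and Ndrg1. Where several peaks did, the one with the highest mean count was taken, so the level of start peaks is in part set by that choice. The table gives no exons, so whether a peak lies in an exon, intron or UTR was not analysed here. The code was tested on simulated data. DESeq2 1.42.0, limma-voom (limma 3.58.1) and the settings described at the end were alternatives. Replicate numbers follow accession order. Between pairs of libraries the lowest chi-square was 2.95 per degree of freedom (6556c3 and 6694c2). Both ends of a fragment can count and the value rises with depth. Whether any 2 libraries agreed within counting noise was therefore not settled.

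The members and lists were chosen with earlier results of these data known. All 10 members are named. The named peaks of each are the start peak, the peak with the highest CPM per kb and the peak with the smallest p; of the pathway list, the 2 genes with the smallest p per role; and per member, the 2 genes on other chromosomes with the highest Pearson's r. The Hif1a peak at the lower end of the gene record, the intragenic peaks of Epas1 and Hk2 described in single clones and the peaks shared with neighbouring genes were chosen after their values were seen. Of the marker lists, start peaks were found for 3 of 14 fibroblast and pericyte genes (sum 23.3 to 53.9 CPM in T cell high, 26.1 to 47.3 CPM in T cell low clones), 6 of 10 pan-leukocyte genes (39.7 to 75.6 CPM in T cell high, 59.3 to 95.8 CPM in T cell low), 3 of 12 macrophage genes (12.2 to 35.9 CPM in T cell high, 11.1 to 52.8 CPM in T cell low) and 4 of 13 T and NK cell genes (37.8 to 66.2 CPM in T cell high, 29.1 to 85.6 CPM in T cell low).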

Additional observations from a re-analysis of the deposited data

Results flagged for a closer look

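In 4 of 56 groups of values, 1 clone lay farther from its group than Dixon's criterion allows, where chance gives about 1 in 20. All 4 values were in T cell high clones. Epas1 summed to 277 CPM in 6421c2, and the nearest other T cell high clone had 135 CPM. The Epas1 peak chr17:86811989-86812603 had 9.003 CPM in 6421c2, with 4.99 CPM in the nearest T cell high clone. Arnt summed to 77.8 CPM in 2838c3, with 53.4 CPM in the nearest. Hk2 summed to 359.9 CPM in 6555c3, with 231 CPM in the nearest. Both Epas1 values come from the same library, and neither is independent of the other.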

How the results depend on the processing

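Peaks of the 10 genes and pathway genes past the adjusted threshold numbered 0 under every setting run. Over all peaks the count was 0 with edgeR, 47 with DESeq2 and 91 with the number at the start of the clone name as a factor. Over all genes it was 1 with edgeR, 11 with DESeq2, 0 with limma-voom, 0 with the regional offset and 564 with the clone-name factor. That factor rests on 6499c4 against 6499c3, with 1 residual degree of freedom. Leaving out each library gave 0 to 42 peaks and 0 to 10 genes over all features, both highest without 2838c3. Without 2838c3, 8 of 70 peaks of the 10 genes had an unadjusted p under 0.05, against 10.7% of all peaks.

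Directions changed in the following cases, none past the adjusted threshold, and the cause was not tested. With limma-voom the log2 fold change was -0.11 for the Epas1 sum and -0.23 for its start peak. With the regional offset it was 0.025 for the Hif1a sum, -0.39 for Epas1, 0.0071 for Egln3, -0.070 for Slc2a1 and 0.068 for Ndrg1, and at start peaks -0.44 for Epas1, -0.23 for Slc2a1 and 0.0045 for Ndrg1. With the clone-name factor it was 0.10 for the Egln1 sum, and at start peaks -0.037 for Epas1, -0.36 for Slc2a1, -0.22 for Bnip3 and -0.54 for Hk2. With peaks in the gene body only it was 0.058 for Bnip3. Leaving out each library gave -0.36 to 0.21 for the Epas1 sum, -0.23 to 0.0077 for Hif1a, -0.17 to 0.0012 for Vegfa, -0.15 to 0.0092 for Ndrg1 and -0.10 to 0.037 for Bnip3, and at start peaks -0.41 to 0.23 for Epas1, -0.025 to 0.15 for Slc2a1 and -0.016 to 0.14 for Bnip3. Of the other values of single genes and peaks, 349 with a library left out and 200 under other settings kept their direction and side of the threshold.

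No paired analysis was possible because the labels give no replicate numbers that pair samples across the groups. The clone-name factor above is the nearest to a block and rests on a single pair of clones. Of the 73 peaks, 10 had a count of 0 in some library, and the smallest peak held 96 counts over all libraries, so low peaks bear wide error. Arnt rests on 2 peaks.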
